A study of Homo sapiens with 12 samples.

Results

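The genes described here are the 33 genes of glycolysis, lactate handling and glucose handling that were chosen by symbol from the 70116 genes of the count table. They run from the glucose transporters through the enzymes that turn glucose into pyruvate to the lactate exporters, with a few genes of gluconeogenesis, glycerol 3-phosphate and glycogen metabolism. Of the 33 genes, 28 had enough counts to be tested and 5 did not.

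The RNA came from MiaPaCa-2 cells, an established human pancreatic cancer line, transfected with siRNA, a short duplex RNA that lowers the messenger RNA of its target. There were 4 groups of 3 libraries, namely a control siRNA (siControl) and siRNAs against SLC25A1 (siSLC25A1), ACLY (siACLY) and ACO1 (siACO1). SLC25A1 carries citrate out of mitochondria, ACLY cleaves that citrate to supply acetyl-CoA, and ACO1 isomerises it to isocitrate in the cytosol and also serves as an RNA-binding regulator of iron genes. All 4 groups are 1 cell line carrying a transfected siRNA, the medium and the time after transfection are not given in the sources used here, and nothing says that the replicates were separate cultures, so the p-values measure the spread between these libraries, which may be technical.

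Glycolysis splits glucose into pyruvate, which is reduced to lactate and exported or passed to mitochondria. Phosphofructokinase commits sugar to the pathway. It is inhibited by citrate and by ATP and activated by fructose-2,6-bisphosphate, which the PFKFB enzymes make and remove. Cancer cells often carry high levels of the transporter GLUT1, of hexokinase 2 and of lactate exporters, and many of the genes respond to the transcription factors HIF1 and MYC.

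The libraries held 24159424 to 43792811 counts, of which the 33 genes took 1.52% to 1.69%. The targeted gene was low under its label, with SLC25A1 at 134 CPM (counts scaled to library size) in siControl and 11.7 in siSLC25A1, ACLY at 499 and 36.1 in siACLY, and ACO1 at 45.0 and 1.68 in siACO1. Across genes, which are no replicates of each other, libraries of a group correlated at Pearson's r of 0.991 to 0.994. The library that stood apart was siACO1 replicate 3. It differed from the other 2 of its group by a chi-square of 11.9 and 12.6 per degree of freedom. The other pairs gave 2.31 to 5.85. Among these, siSLC25A1 replicate 1 gave 5.85 and 4.65 against the other 2 of its group, which gave 3.09 between them. For the genes described here, the siACO1 count against siControl and the calls that changed without this library are given both ways. Of 6 epithelial markers KRT8, KRT18 and KRT19 were present and EPCAM, CDH1 and KRT7 lay at or under 1 CPM in all groups. Acinar and islet markers were at 0 to 0.0415 CPM summed, and endothelial and leukocyte markers at no more than 0.427 and 0.201 CPM summed. Fibroblast markers summed to 875 to 895 CPM in siControl, carried by COL1A2, with 4 of 5 at or under 1 CPM. Counts of KRT8, KRT18, CELA3A, CTRB1, INS and CD68 are uncertain, from overlapping exons or shared sequence.

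Counts were too low to read for 5 of the genes. LDHB, FBP1 and PCK2 had 0 counts in all 12 libraries, which allows up to 3 counts per library or 0.0685 to 0.124 CPM before normalisation, counting error only. LDHA, the lactate dehydrogenase subunit that turns pyruvate into lactate, had 0 to 4 counts per library, and SLC16A1, the lactate transporter MCT1, had 0 to 7. ACTG1 and TUBB, cytoskeletal genes of every dividing cell, were listed at 3 to 14 and 0 to 6 counts in the same libraries. A listing near 0 in this table is not a measured absence, and lactate dehydrogenase is not described further.

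Promoter sequences are shown for ALDOC, ENO2 and HK2, so that a reader can see the letters around their starts. These genes are among those called with an absolute log2 fold change of at least 0.5. SLC2A3, PFKFB2, SLC16A3 and ENO3 were also among them and are not shown. The sequences are from RefSeq on GRCh38.p14, from 250 bases before to 50 bases after an annotated start, 5′ to 3′ on the gene's strand. Capitals mark CACGTG, the E-box, and ACGTG and GCGTG, the 2 forms of the core of the hypoxia response element, on either strand. ACGTG lies inside CACGTG, so an E-box is counted under both. ALDOC is at chr17:28576846-28577145 on the minus strand, ENO2 at chr12:6914330-6914629 on the plus strand, and HK2 has 2 starts, at chr2:74833877-74834176 and chr2:74834920-74835219 on the plus strand.
ALDOC: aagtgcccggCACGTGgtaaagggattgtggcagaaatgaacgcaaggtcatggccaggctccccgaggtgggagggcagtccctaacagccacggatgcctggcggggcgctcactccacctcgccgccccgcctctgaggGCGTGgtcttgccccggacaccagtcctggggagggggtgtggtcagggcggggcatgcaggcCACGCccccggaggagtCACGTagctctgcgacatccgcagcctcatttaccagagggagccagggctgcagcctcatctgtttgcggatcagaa
ENO2: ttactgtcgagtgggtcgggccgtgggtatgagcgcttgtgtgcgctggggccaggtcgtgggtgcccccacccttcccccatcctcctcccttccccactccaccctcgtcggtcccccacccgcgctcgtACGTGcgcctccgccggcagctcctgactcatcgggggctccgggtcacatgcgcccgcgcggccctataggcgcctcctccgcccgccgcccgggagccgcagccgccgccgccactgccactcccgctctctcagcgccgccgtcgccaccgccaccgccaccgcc
HK2, first start: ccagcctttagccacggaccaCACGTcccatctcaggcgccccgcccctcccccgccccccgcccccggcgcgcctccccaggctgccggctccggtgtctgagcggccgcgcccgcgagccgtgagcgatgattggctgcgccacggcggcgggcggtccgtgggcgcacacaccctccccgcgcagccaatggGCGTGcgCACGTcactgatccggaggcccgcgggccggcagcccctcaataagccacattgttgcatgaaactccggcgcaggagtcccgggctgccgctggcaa
HK2, second start: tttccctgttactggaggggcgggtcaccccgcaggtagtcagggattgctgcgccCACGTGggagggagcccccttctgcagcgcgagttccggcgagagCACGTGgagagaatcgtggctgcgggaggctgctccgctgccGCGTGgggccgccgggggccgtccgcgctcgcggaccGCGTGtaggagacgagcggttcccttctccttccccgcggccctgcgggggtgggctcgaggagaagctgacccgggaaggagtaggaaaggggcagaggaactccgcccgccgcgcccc
The ALDOC window holds 1 CACGTG, 240 bases before the start, and ACGTG again at 28 bases before it. The ENO2 window holds 1 ACGTG, 118 bases before the start. The second HK2 window holds CACGTG at 194 and 149 bases before the start.

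Across 30 of the 33 genes with an entry, 6 of 61 start windows (9.84%) held CACGTG, against 7.26% of all 35116 RefSeq windows. ACGTG was in 21 of 61 (34.4%) against 21.4%, and GCGTG in 24 of 61 (39.3%) against 36.5%. TGATGNAA, the C/EBP-ATF response element, was in 2 of 61 (3.28%) against 3.62%. Starts of 1 gene share bases, and a match describes letters, not binding.

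At the transcript level, among the 28 genes tested, the steps of glycolysis after the sugar is split, TPI1 included, carried most of the messenger RNA. Lactate dehydrogenase could not be read, and the counts of ALDOA and GAPDH are uncertain. As CPM per kilobase of exon (RPKM), siControl means were 1475 for GAPDH, 675 for ENO1, 462 for TPI1 and 365 for PKM, against 65.4 for GPI, 71.4 for PFKP, 31.4 for HK1 and 26.7 for SLC2A1. Of the other late genes, PGAM1 and PGK1 were at 198 and 117, and the minor enolases ENO2 and ENO3 at 16.8 and 1.31. ALDOC at 0.927 and PFKFB4 at 0.754 RPKM were the lowest of the 28 genes tested. The genes tested were abundant, with a median of 133 CPM over the 12 libraries against 13.8 for all 16197 genes tested, and 23 of the 28 lay above that median. Abundant genes are called at smaller fold changes, which bears on each count of called genes.

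In siSLC25A1 HK2 rose to 136% of siControl, ALDOC fell to 58.6%, and SLC2A1 and GPD2 rose while GPI and GPD1L fell by smaller amounts. With edgeR's quasi-likelihood test and an adjusted p under 0.05 over all genes, 12 of 28 genes were called (42.9%), 6 higher and 6 lower, where 19.6% of all genes tested were called, 10.3% higher and 9.27% lower. Past an absolute log2 fold change of 0.5 there was 1 called gene, ALDOC, against 4.27% of all genes. The median absolute log2 fold change was 0.10 for the 28 genes and 0.15 for all genes, and the median was -0.05 against 0.00. Library ranges of siSLC25A1 and siControl did not overlap for 16 of the 28, against 37.1% of all genes. The calls on SLC2A1, HK2, GPI, ALDOC, GPD1L and GPD2 held under each of 14 alternative settings, while the other 6 calls were lost under at least 1 of them. With median-of-ratios size factors or DESeq2, 11 were called, 6 higher and 5 lower, against 19.5% and 18.9% of all genes. Without the filter there were 11 of 30, against 9.19% of all genes. With only the 2 groups compared there were 14 of 28, against 25.8%.

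In siACLY SLC2A3, PFKFB2, PFKFB4 and ALDOC rose, and SLC16A3, ENO3 and the abundant GPI, GAPDH and ENO1 fell. In all 20 of 28 genes were called (71.4%), 7 higher and 13 lower, where 36.7% of all genes were called, 18.4% higher and 18.3% lower. Past an absolute log2 fold change of 0.5 there were 5, against 11.4% of all genes. Scaled by library totals alone, 15 were called, 7 higher and 8 lower, where 36.3% of all genes were called. The calls on PFKM, PFKP, PFKFB3, PGK1 and GPD2 were lost with that scaling. Without the filter 18 of 30 were called, 7 higher and 11 lower, against 17.2% of all genes. The median absolute log2 fold change was 0.21 against 0.20 for all genes, and ranges did not overlap for 20 of the 28 against 50.5% of all genes.

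In siACO1 HK2, PFKP, PFKFB2 and PFKFB3 fell, while SLC2A3, ALDOC, ENO2 and ENO3 rose. Again 20 of 28 genes were called (71.4%), 11 higher and 9 lower, where 37.1% of all genes were called, 17.8% higher and 19.3% lower. Past an absolute log2 fold change of 0.5 there were 4, against 11.3% of all genes. Without siACO1 replicate 3 there were 17, 7 higher and 10 lower, where 37.3% of all genes were called. With library totals alone there were 18, 12 higher and 6 lower, against 37.2% of all genes. With median-of-ratios size factors there were 18, 9 higher and 9 lower, against 37%. DESeq2 gave 19, 9 higher and 10 lower, against 35.2%. Without the filter there were 16 of 30, 8 higher and 8 lower, against 17.5%. With only the 2 groups compared there were 16 of 28, 8 higher and 8 lower, against 36.1%. Without siControl replicate 1 or 2 there were 12 or 13, against 30.7% or 31.6% of all genes. The median absolute log2 fold change was 0.14 against 0.21 for all genes, and ranges did not overlap for 22 of the 28 against 46.3% of all genes. In the same libraries the summed epithelial markers were 2067 to 2181 CPM against 3607 to 3745 in siControl, and the fibroblast list, carried by COL1A2 alone with 4 of 5 markers at or under 1 CPM, was 1546 to 1592 against 875 to 895. The part of these shifts in the results was not tested.

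**Figure D1:**
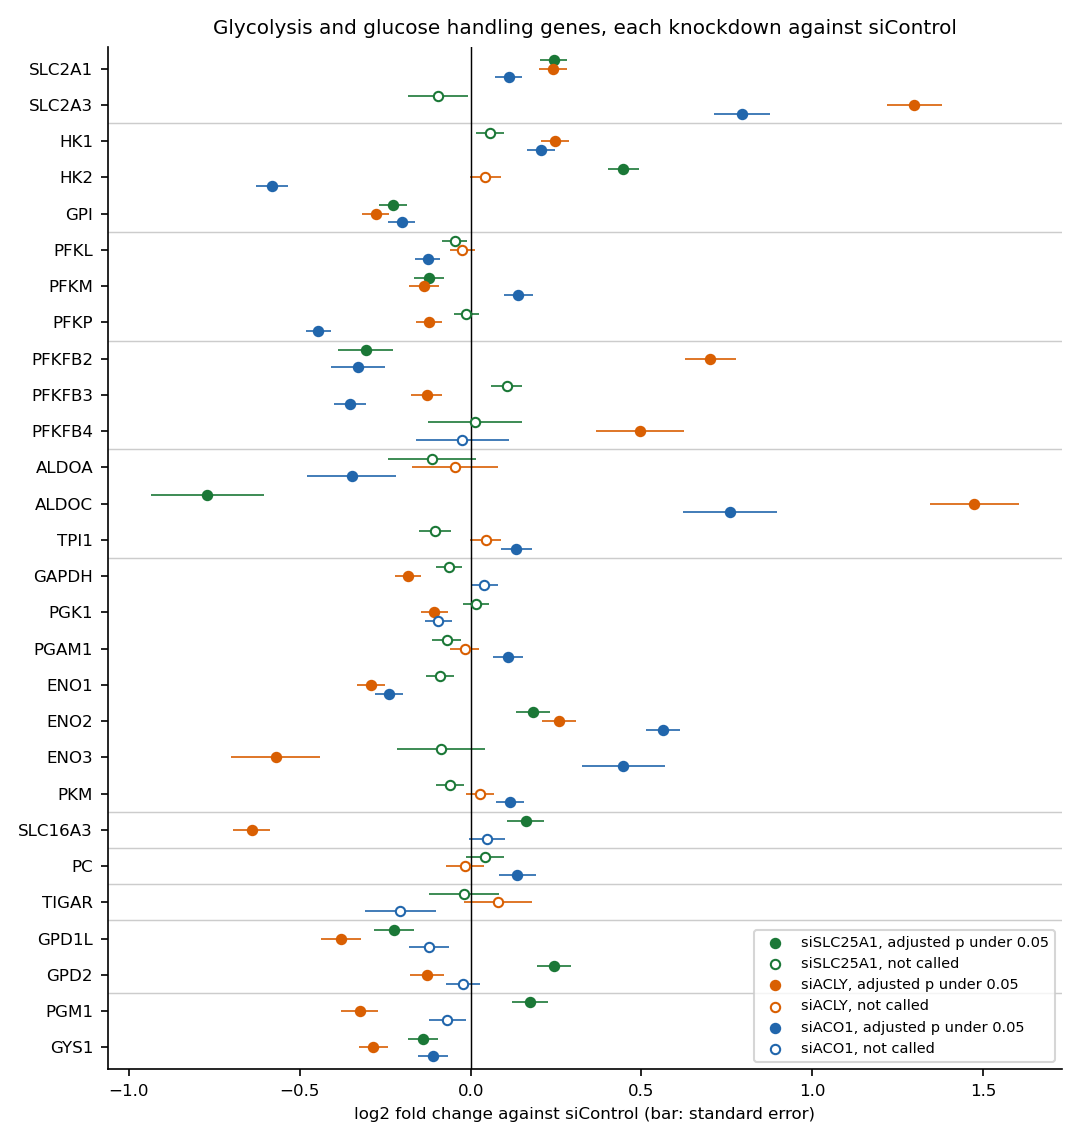
Log2 fold change against siControl for the 28 genes tested, in the order of the pathway, with the standard error as a bar and filled points for an adjusted p under 0.05. Most points lie within 0.5 of 0, and SLC2A3, ALDOC, PFKFB2, HK2, ENO2, ENO3 and SLC16A3 stand outside in at least 1 knockdown. The 3 comparisons share the siControl libraries.

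SLC2A3 encodes GLUT3, a high-affinity transporter. It stood at 21.7, 21.7 and 21.3 CPM in siControl, 16.6, 21.7 and 22.5 in siSLC25A1, 48.8, 54.4 and 56.3 in siACLY and 35.8, 36.6 and 39.6 in siACO1. The siACLY and siACO1 libraries lay above all siControl and siSLC25A1 libraries, and those 2 sets did not overlap each other, while siSLC25A1 overlapped siControl. The log2 fold change was 1.30 ± 0.08 (SE) in siACLY (edgeR adjusted p = 8.08e-12) and 0.79 ± 0.08 in siACO1 (3.85e-08), and -0.09 in siSLC25A1 (0.506). SLC2A3 shares 30.4% of its 31-base stretches with other annotated transcripts, so its counts are uncertain if shared reads were split.

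SLC2A1 encodes GLUT1, the main basal transporter. Its level was 124 to 128 CPM in siControl, 148 to 151 in siSLC25A1, 149 in siACLY and 133 to 142 in siACO1, so no siControl library reached another group. Its log2 fold change was 0.24 in siSLC25A1 (edgeR adjusted p = 4.93e-05), 0.24 in siACLY (2.06e-05) and 0.11 in siACO1 (0.0303). The siACO1 call was lost without siACO1 replicate 3 (0.07) and without any 1 of the 3 siControl libraries (0.10 to 0.12). SLC2A3 was 11.6% of the pair per exon length in siControl, 9.43% in siSLC25A1, 21.5% in siACLY and 17.4% in siACO1.

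The hexokinases phosphorylate glucose and trap it in the cell. HK2, the isoform that many tumours express, stood at 173, 161 and 174 CPM in siControl and at 225, 238 and 228 in siSLC25A1. It was 169, 171 and 183 in siACLY and 115, 118 and 106 in siACO1. All siSLC25A1 libraries were above and all siACO1 libraries below every siControl library, and siACLY overlapped siControl. On the log2 scale the change was 0.45 ± 0.05 in siSLC25A1 (edgeR adjusted p = 1.5e-08), 0.04 ± 0.05 in siACLY (0.494) and -0.58 ± 0.05 in siACO1 (3.74e-11). siSLC25A1 exceeded siACO1 by 1.03 on the log2 scale (7.99e-17).

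HK1, the widely expressed hexokinase, was 194 to 203 CPM in siControl, 202 to 213 in siSLC25A1, 225 to 245 in siACLY and 224 to 230 in siACO1. It was called higher in siACLY (log2 fold change 0.25, edgeR adjusted p = 1.91e-05) and siACO1 (0.21, 0.000172), and not in siSLC25A1 (0.06, 0.363). HK2 was 47.1% of the 2 hexokinases per exon length in siControl, 53.8% in siSLC25A1, 43.6% in siACLY and 34.0% in siACO1 (SD 0.267 to 1.44 percentage points, n = 3). GPI, which turns glucose 6-phosphate into fructose 6-phosphate, was 688 to 710 CPM in siControl and 547 to 621 in the 9 knockdown libraries, and was called lower in siSLC25A1 (-0.23, 0.000106), siACLY (-0.28, 2.45e-06) and siACO1 (-0.20, 0.000176). These 3 comparisons share the siControl libraries.

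**Figure D2:**
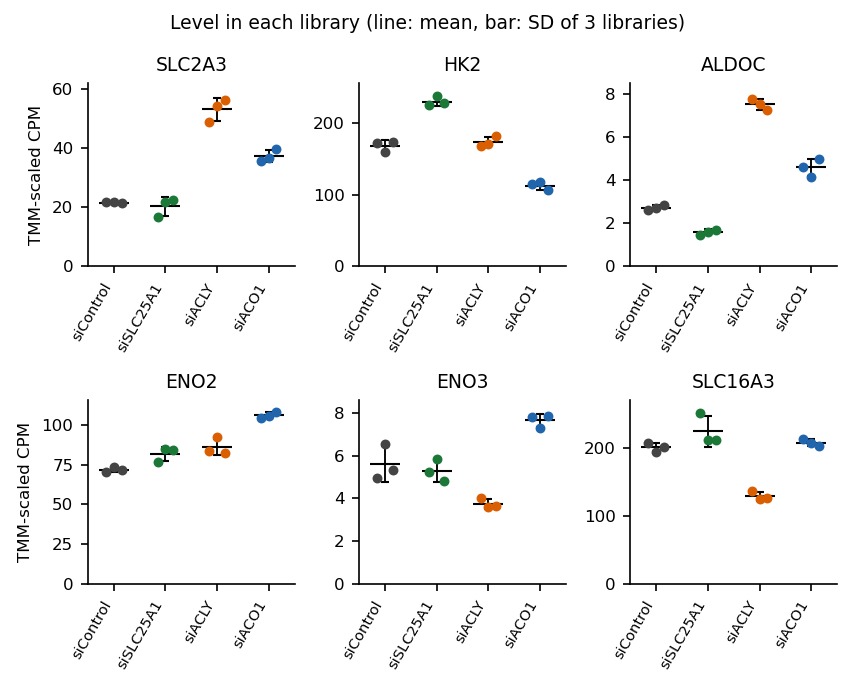
TMM-scaled CPM of SLC2A3, HK2, ALDOC, ENO2, ENO3 and SLC16A3 in each of the 12 libraries (points), with the mean as a line and the SD of 3 libraries as a bar. HK2 is highest in siSLC25A1 and lowest in siACO1, and ALDOC is lowest in siSLC25A1 and highest in siACLY.

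Of the 3 phosphofructokinase subunits, PFKP in siACO1 had the largest change and the rest changed by at most 0.14 on the log2 scale. PFKP, the platelet type, was 346, 335 and 355 CPM in siControl, 337, 345 and 345 in siSLC25A1, 321, 314 and 317 in siACLY and 255, 252 and 253 in siACO1. The siACO1 libraries were below every other library. The log2 fold change in siACO1 was -0.45 ± 0.04 (edgeR adjusted p = 1.21e-10), against -0.12 in siACLY (0.0106) and -0.01 in siSLC25A1 (0.864). The siACLY call was lost with library totals (-0.08, 0.0924) and without siControl replicate 3 (-0.11, 0.0608).

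PFKL, the liver type, was 499, 487 and 505 CPM in siControl, 477, 479 and 488 in siSLC25A1, 493, 484 and 490 in siACLY and 464, 454 and 450 in siACO1. It was called lower in siACO1 (log2 fold change -0.12, edgeR adjusted p = 0.00748), where its libraries lay below all others, and not with library totals (-0.08, 0.0969). In siSLC25A1 it changed by -0.05 (0.42) and in siACLY by -0.02 (0.652).

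PFKM, the muscle type, was 150, 150 and 159 CPM in siControl, 144, 133 and 145 in siSLC25A1, 140, 141 and 137 in siACLY and 169, 163 and 174 in siACO1. It was lower than siControl in siSLC25A1 and siACLY (log2 fold change -0.12, edgeR adjusted p = 0.0456, and -0.14, 0.0128) and higher in siACO1 (0.14, 0.0103). These calls were fragile. In siSLC25A1 the call was lost without any 1 siControl library or siSLC25A1 replicate 2 (-0.14 to -0.08), in siACLY without siControl replicate 3 (-0.12) and with library totals (-0.09), and in siACO1 without siControl replicate 1 (0.13) or 2 (0.12). The direct contrasts were larger than their error: siACO1 exceeded siSLC25A1 and siACLY, with siSLC25A1 minus siACO1 at -0.26 (1.25e-05) and siACLY minus siACO1 at -0.28 (4.92e-06).

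Per exon length PFKP was 48.2% of the 3 subunits in siControl, 49.2% in siSLC25A1, 47.1% in siACLY and 41.4% in siACO1. PFKM was 14.1%, 13.4%, 13.6% and 18.2% in that order, and PFKL 37.6%, 37.5%, 39.3% and 40.4%. The shares did not overlap siControl for the 3 subunits in siACO1 and in siACLY and for PFKM and PFKP in siSLC25A1, each at an exact permutation p = 0.1, two-sided, the smallest that 3 against 3 libraries can give. The largest difference was in PFKP in siACO1, -6.81 percentage points from siControl, against differences of at most 1.66 points in size in siACLY and 0.943 in siSLC25A1.

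**Figure D3:**
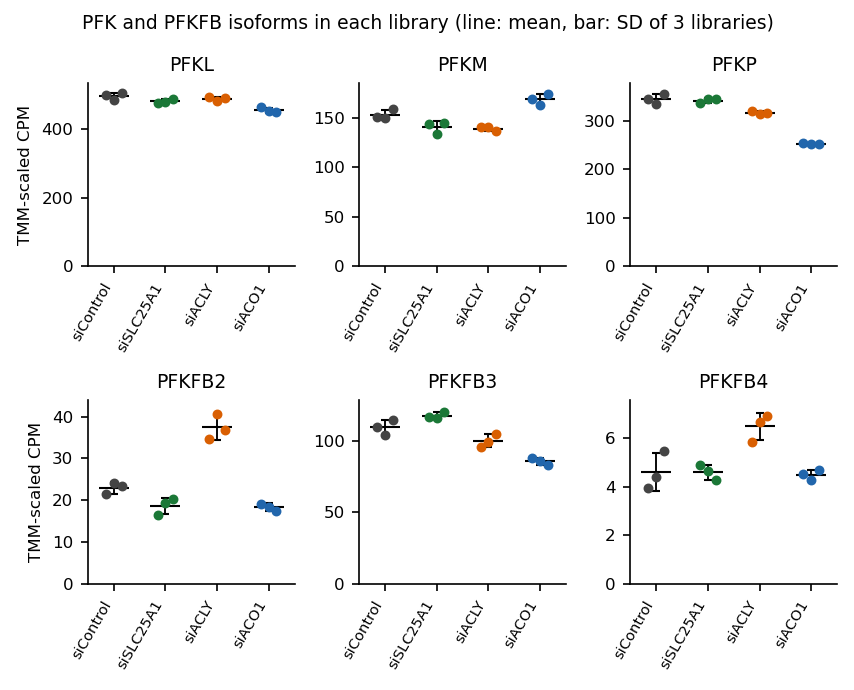
TMM-scaled CPM of the phosphofructokinase subunits PFKL, PFKM and PFKP and of the PFKFB isoforms in each library (points), with the mean as a line and the SD of 3 libraries as a bar. PFKP is lower and PFKM higher in siACO1 than in siControl, and PFKFB2 is highest in siACLY.

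The PFKFB enzymes set the level of fructose-2,6-bisphosphate. PFKFB2, the cardiac isoform, was 21.4, 24.2 and 23.3 CPM in siControl, 16.4, 19.3 and 20.2 in siSLC25A1, 34.7, 40.7 and 36.9 in siACLY and 19.2, 18.4 and 17.4 in siACO1. The siACLY libraries were above all others, and both other knockdowns were below siControl without overlap. Its change on the log2 scale was 0.70 ± 0.07 in siACLY (edgeR adjusted p = 1.37e-08), -0.31 ± 0.08 in siSLC25A1 (0.00604) and -0.33 ± 0.08 in siACO1 (0.00143). The siSLC25A1 call was lost without siSLC25A1 replicate 1 (-0.22, 0.0698). siACLY exceeded siACO1 by 1.03 (6.74e-12), and siSLC25A1 differed from siACO1 by 0.02 ± 0.08 (0.864).

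PFKFB3, a strongly kinase-active isoform, was the most abundant of the 3. It stood at 110, 104 and 115 CPM in siControl, 117, 116 and 121 in siSLC25A1, 96.2, 99.4 and 105 in siACLY and 87.9, 86.2 and 83.2 in siACO1. The siACO1 libraries lay below all others and the siSLC25A1 libraries above all of siControl. The log2 fold change was -0.35 ± 0.05 in siACO1 (edgeR adjusted p = 4.34e-07), -0.13 in siACLY (0.0269) and 0.11 in siSLC25A1 (0.109). The siACLY call was lost with library totals (-0.09) and without siControl replicate 1 (-0.13) or 3 (-0.10), or siACLY replicate 1 (-0.10) or 2 (-0.13).

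PFKFB4 was low, at 3.94, 4.41 and 5.47 CPM in siControl, 4.88, 4.67 and 4.27 in siSLC25A1, 5.87, 6.67 and 6.94 in siACLY and 4.51, 4.29 and 4.69 in siACO1. Only the siACLY libraries lay above all siControl libraries (log2 fold change 0.50 ± 0.13, edgeR adjusted p = 0.00317). It changed by 0.01 in siSLC25A1 (0.961) and -0.02 in siACO1 (0.916). PFKFB3 was 85.6% of the 3 isoforms per exon length in siControl, 88.2% in siSLC25A1, 77.6% in siACLY and 84.7% in siACO1, with PFKFB2 at 10.8%, 8.34%, 17.4% and 10.8%.

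**Figure D4:**
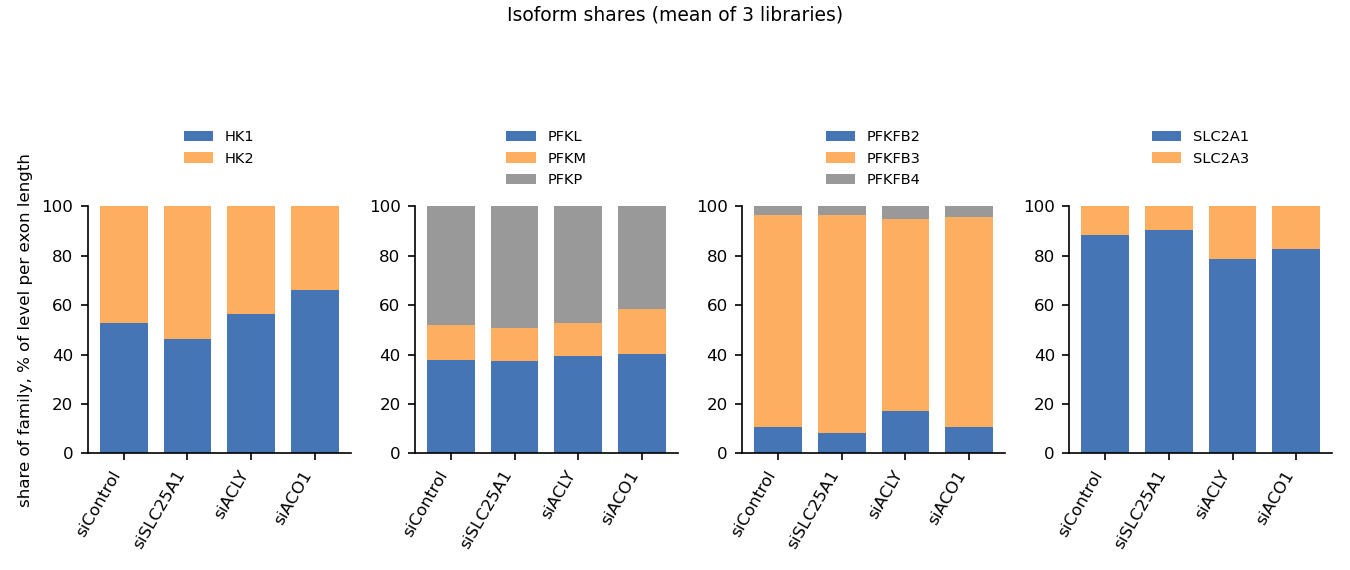
Share of each isoform in its family per exon length, as the mean of 3 libraries, for the hexokinases, the phosphofructokinase subunits, the PFKFB isoforms and the glucose transporters. The HK2 share falls from 53.8% in siSLC25A1 to 34.0% in siACO1, and the SLC2A3 share is highest in siACLY at 21.5%.

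Aldolase splits fructose-1,6-bisphosphate into 2 triose phosphates. ALDOC, the brain type, was 2.60, 2.69 and 2.86 CPM in siControl, 1.46, 1.61 and 1.70 in siSLC25A1, 7.78, 7.53 and 7.25 in siACLY and 4.63, 4.16 and 4.98 in siACO1. No 2 groups overlapped. Its change on the log2 scale was -0.77 ± 0.16 in siSLC25A1 (edgeR adjusted p = 0.000966), 1.47 ± 0.13 in siACLY (3.74e-10) and 0.76 ± 0.14 in siACO1 (5.52e-05), and siSLC25A1 minus siACLY was -2.24 (1.31e-12). These are small counts beside the rest of the pathway.

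ALDOA, the muscle and general aldolase, was listed at 7.28 to 12.2 CPM, and 53.5% of its exon bases overlap another gene, so its level is uncertain. It was called lower in siACO1 (log2 fold change -0.35, edgeR adjusted p = 0.0386), and the call was lost without siControl replicate 1 (-0.27) or 3 (-0.35), without siACO1 replicate 1 (-0.25) and with library totals (-0.30). TPI1, which interconverts the triose phosphates, was called higher in siACO1 (0.13, 0.021), where siACO1 replicate 3 stood at 1504 CPM and the other 2 at 1284 and 1315. Without that library the change was 0.06 (0.172), and the call was also lost without siControl replicate 1 (0.13) or 2 (0.12).

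The payoff phase yields ATP and pyruvate, and its 7 genes (GAPDH, PGK1, PGAM1, ENO1, ENO2, ENO3 and PKM) were called 1 time in siSLC25A1, where 19.6% of all genes were called. In siACLY 5 of the 7 were called, 1 higher and 4 lower, against 18.4% and 18.3% of all genes, and 4 without any 1 siControl library or siACLY replicate 1 or 3. In siACO1 5 were called, 4 higher and 1 lower, against 17.8% and 19.3%. Without siACO1 replicate 3 there were 4, 2 higher and 2 lower, and without siACO1 replicate 1 or any 1 siControl library 3, 2 higher and 1 lower. The 1 call in siSLC25A1, on ENO2, was lost without siSLC25A1 replicate 2 or 3. ENO1, the main enolase, was 3519 to 3601 CPM in siControl, 3262 to 3431 in siSLC25A1, 2857 to 2937 in siACLY and 2883 to 3230 in siACO1. Its log2 fold change was -0.29 in siACLY (edgeR adjusted p = 2e-06) and -0.24 in siACO1 (3.37e-05), and -0.09 in siSLC25A1 (0.134).

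ENO2, the neuronal enolase, went the other way. It was 70.6, 73.7 and 71.5 CPM in siControl, 76.6, 84.7 and 83.9 in siSLC25A1, 83.7, 92.1 and 82.5 in siACLY and 105, 106 and 108 in siACO1. All knockdown libraries were above all siControl libraries, with siACO1 above the rest. Its change on the log2 scale was 0.56 ± 0.05 in siACO1 (edgeR adjusted p = 2.43e-10), 0.26 in siACLY (0.000113) and 0.18 in siSLC25A1 (0.00807), the last lost without siSLC25A1 replicate 2 (0.16, 0.0568) or 3 (0.16, 0.0512). ENO2 was 2.43% of the enolases per exon length in siControl and 4.16% in siACO1.

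ENO3, the muscle enolase, was 4.94, 6.55 and 5.33 CPM in siControl, 5.23, 5.84 and 4.81 in siSLC25A1, 4.02, 3.61 and 3.62 in siACLY and 7.81, 7.31 and 7.87 in siACO1. siACLY lay below and siACO1 above all siControl libraries. The log2 fold change was -0.57 ± 0.13 in siACLY (edgeR adjusted p = 0.000964), 0.45 ± 0.12 in siACO1 (0.00434) and -0.09 in siSLC25A1 (0.712), and siACLY minus siACO1 was -1.02 (1.81e-07).

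GAPDH, which oxidises glyceraldehyde 3-phosphate, fell by 0.18 on the log2 scale in siACLY (edgeR adjusted p = 0.000358), with 3830 to 3957 CPM against 4378 to 4419 in siControl. It was not called in siSLC25A1 (-0.06, 0.271) or siACO1 (0.04, 0.441). With library totals GAPDH was called higher in siACO1 (0.09, 0.03). PGK1, which makes ATP from the product of GAPDH, was called lower in siACLY (-0.11, 0.0324) and the call was lost under library totals (-0.06) and without any 1 of the 3 siControl libraries or siACLY replicate 1 or 3 (-0.12 to -0.10). In siACO1 PGK1 was not called (-0.09, 0.0559), and without siACO1 replicate 3 it was (-0.14, 0.000834). PGAM1, which moves the phosphate within phosphoglycerate, and PKM, the pyruvate kinase of most tissues, were called higher in siACO1 at 0.11 each (0.0465 and 0.0274). Both calls were lost without siACO1 replicate 3 (0.08 each), without siACO1 replicate 1 and without any 1 siControl library (0.10 to 0.12). GAPDH and PGAM1 share 29.1% and 35.7% of their 31-base stretches with other annotated transcripts, and their numbered pseudogenes held 0.0922% and 0.981% of their own counts.

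SLC16A3 encodes MCT4, the lactate exporter of highly glycolytic cells. It was 207, 195 and 202 CPM in siControl, 251, 212 and 211 in siSLC25A1, 136, 124 and 126 in siACLY and 214, 207 and 203 in siACO1. The siACLY libraries were below all others. On the log2 scale the change was -0.64 ± 0.05 in siACLY (edgeR adjusted p = 1.71e-09), 0.16 ± 0.05 in siSLC25A1 (0.0364) and 0.05 in siACO1 (0.522). The siSLC25A1 call rested on replicate 1 (0.07 without it, 0.324) and was also lost without any 1 siControl library (0.14 to 0.18).

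GPD1L, a glycerol 3-phosphate dehydrogenase-like protein, was 39.4 to 40.0 CPM in siControl, 33.1 to 35.5 in siSLC25A1 and 29.5 to 31.8 in siACLY, with log2 fold changes of -0.22 (edgeR adjusted p = 0.0066) and -0.38 (7.3e-06). GPD2, the mitochondrial glycerol 3-phosphate dehydrogenase, rose by 0.24 in siSLC25A1 (0.000608) and was -0.13 in siACLY (0.0467), the latter lost without siControl replicate 2 (-0.08) or 3 (-0.14), without siACLY replicate 2 (-0.12) or 3 (-0.11), and with library totals (-0.08). Neither was called in siACO1 (-0.12 and -0.02). There GPD1L stood at 39.5, 35.0 and 35.1 CPM, and without siACO1 replicate 1 it was called lower (-0.18, 0.0256).

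PGM1, which links glucose 1-phosphate and glucose 6-phosphate, was 65.2 to 68.5 CPM in siControl, 71.3 to 80.4 in siSLC25A1 and 52.8 to 54.9 in siACLY. Its change on the log2 scale was -0.32 in siACLY (edgeR adjusted p = 1.97e-05) and 0.17 in siSLC25A1 (0.0193), and siSLC25A1 exceeded siACLY by 0.50 (2.64e-08). The siSLC25A1 call was lost without siControl replicate 1 (0.18) or 3 (0.16), or siSLC25A1 replicate 2 (0.13) or 3 (0.18). GYS1, muscle glycogen synthase, was -0.14 in siSLC25A1 (0.0222), -0.28 in siACLY (6.16e-06) and -0.11 in siACO1 (0.0461). The siSLC25A1 call was lost without siControl replicate 1 or 3 or siSLC25A1 replicate 2 or 3 (-0.15 to -0.10), and the siACO1 call without any 1 siControl library or siACO1 replicate 1 or 3 (-0.13 to -0.10). The siACO1 call on GYS1 was also lost with library totals (-0.06). PGM1 was not called in siACO1 (-0.07), and was without siACO1 replicate 3 (-0.13, 0.0414).

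PC, pyruvate carboxylase, was called only in siACO1 (log2 fold change 0.14, edgeR adjusted p = 0.0493), and not without any 1 siControl library or siACO1 replicate 1 (0.10 to 0.16). TIGAR, which degrades fructose-2,6-bisphosphate, was at 6.96 to 9.41 CPM in all libraries and was not called in any comparison with siControl, with a change of -0.21 in siACO1 (0.122). Of its exon bases 45.6% overlap another gene.

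The knockdowns were also compared directly, without the siControl libraries in the contrast. HK2, ALDOC, SLC2A3, PFKP, PFKFB3, ENO3, PGM1 and GAPDH were called in all 3 of these contrasts. The PFKP and GAPDH calls between siSLC25A1 and siACLY did not hold under every alternative setting, nor did that on GAPDH between siSLC25A1 and siACO1. Of the 28 genes 18 were called between siSLC25A1 and siACLY, 12 higher and 6 lower in siSLC25A1, where 33.8% of all genes were called, 17.5% higher and 16.3% lower. With library totals 14 were called, 7 higher and 7 lower, against 33.7% of all genes. Between siSLC25A1 and siACO1 18 were called, 8 higher and 10 lower, against 42.1% of all genes (21.8% higher, 20.3% lower). Between siACLY and siACO1 20 were called, 10 higher and 10 lower, against 42.1% of all genes (21.4% higher, 20.7% lower). Without siACO1 replicate 3 there were 17 called between siSLC25A1 and siACO1, against 40.3% of all genes. Between siACLY and siACO1 there were then 22, against 41.4%. HK2 in siSLC25A1 was above siACLY by 0.40 (edgeR adjusted p = 4.4e-08). SLC16A3 was lower in siACLY than in siSLC25A1 by 0.80 (5.27e-11, siSLC25A1 minus siACLY) and than in siACO1 (-0.69, 2.61e-10, siACLY minus siACO1). SLC2A1 differed between siSLC25A1 and siACLY by 0.00 ± 0.04 (0.984).

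Beyond these genes, 73 other genes of glucose transport, glycolysis, pyruvate and lactate fate, gluconeogenesis and glycogen were read from the same fit, of which 50 were tested. In siSLC25A1 15 were called, 6 higher and 9 lower. Without siControl replicate 2 there were 8 of the 50, where 14.8% of all genes were called. In siACLY 13 were called, 8 higher and 5 lower (17, 12 higher and 5 lower, with library totals), and in siACO1 25, 13 higher and 12 lower. As shares these are 30%, 26% and 50%, against 19.6%, 36.7% and 37.1% of all genes.

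TXNIP, a glucose-induced arrestin that promotes removal of glucose transporters from the cell surface, rose from 12.8 CPM in siControl to 35.2 in siSLC25A1, 35.7 in siACLY and 25.3 in siACO1. The log2 fold changes were 1.46, 1.48 and 0.99 (edgeR adjusted p = 1.22e-14, 3.8e-15 and 3.13e-11). MLXIPL, the carbohydrate-responsive transcription factor ChREBP, fell by 0.69 in siSLC25A1 (4.3e-05) and by 1.04 in siACO1 (2.26e-08), and changed by 0.08 in siACLY (0.598). HKDC1, a hexokinase-like enzyme, fell by 0.75 in siSLC25A1 (0.00124) and by 1.45 in siACO1 (1.2e-06). HIF1A, the hypoxia-responsive transcription factor subunit, rose by 0.22 in siSLC25A1 (0.000272) and by 0.19 in siACO1 (0.000527). In siACLY HIF1A changed by 0.07 (0.223), and with library totals it was called there (0.11, 0.042).

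PYGL, liver glycogen phosphorylase, which releases glucose 1-phosphate from glycogen, went from 134 CPM in siControl to 63.4 in siACLY and 57.8 in siACO1, with log2 fold changes of -1.09 (edgeR adjusted p = 1.43e-16) and -1.22 (9.28e-18), and was not called in siSLC25A1 (-0.12, 0.0615). PHKA1, a regulatory subunit of phosphorylase kinase, which activates glycogen phosphorylase, fell by 1.10 in siACO1 (4.34e-15), and PHKB, another of its subunits, by 0.34 in siACLY (2.55e-07). PHKB was called higher in siACO1 (0.18, 0.000936) and lower in siSLC25A1 (-0.17, 0.00412), the latter lost without siControl replicate 2 (-0.13, 0.0504). GPD1, the cytosolic glycerol 3-phosphate dehydrogenase, fell by 1.66 in siACO1 (3.2e-05) from 1.93 to 0.590 CPM. BSG, the chaperone of MCT1 and MCT4, fell by 0.33 in siACLY (3.45e-07) and was -0.12 in siSLC25A1 (0.0355), which was lost without siControl replicate 1 or 3 (-0.12 each) or siSLC25A1 replicate 2 (-0.12) or 3 (-0.13).

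LDHD, a mitochondrial D-lactate dehydrogenase, was -0.65 in siSLC25A1 (edgeR adjusted p = 0.00253) and 0.69 in siACO1 (0.000135). PDK3, a kinase that inhibits pyruvate dehydrogenase, rose by 0.50 in siACLY (3.35e-06). G6PC3, a glucose 6-phosphatase, rose by 0.39 (1.46e-06) and PGM2L1, which makes glucose 1,6-bisphosphate, by 0.56 (0.0039) in siACLY. UGP2, which makes UDP-glucose for glycogen, rose by 0.18 in siSLC25A1 (0.00412). PPP1R3E, a glycogen-targeting subunit of protein phosphatase 1, rose by 0.54 in siACO1 (0.000128).

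The remaining named genes were less stable. LDHC, the testis-type lactate dehydrogenase subunit, lay at 0.662 CPM in siControl. It was 0.93 in siSLC25A1 (edgeR adjusted p = 0.0158), which was lost without siControl replicate 2 (0.84, 0.0669) or siSLC25A1 replicate 2 (0.87, 0.058). In siACO1 it was 0.77 (0.0268), lost without siACO1 replicate 3 (0.55), siControl replicate 2 (0.68) or siControl replicate 3 (0.79). SLC2A8, the transporter GLUT8, was -0.81 in siACLY (0.0136), lost without siControl replicate 2 (-0.73) or siACLY replicate 1 (-0.72). PPP1R3F, another glycogen-targeting subunit, was -0.28 in siSLC25A1 (0.0142), lost without siSLC25A1 replicate 2 (-0.21), and 0.23 in siACO1 (0.0171), lost without siControl replicate 1 (0.22) or siACO1 replicate 3 (0.19). G6PC3 was also called higher in siACO1 (0.14, 0.0396), which was lost without any 1 siControl library (0.11 to 0.16), siACO1 replicate 2 (0.16) or siACO1 replicate 3 (0.09).

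In bulk RNA a lower level per cell and fewer cells carrying the transcript cannot be told apart, and transcript levels do not give enzyme activity, citrate or metabolic flux, which were not measured in these files.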

How the data were processed

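RNA sequencing of poly(A) RNA from 12 MiaPaCa-2 libraries (4 groups of 3) was analysed. The authors deposited whole-number read counts per gene in 1 table, with columns matched to samples through the labels. The submitters' processing notes name CASAVA, FastQC, Trim Galore, STAR 2.7.0e and DESeq2, and the builds GRCm39 and GRCh38 without roles. The counting tool, annotation release and use of strand are not given in the sources used here. Gene names were matched by Ensembl identifier.

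The counts were fitted with edgeR 4.0.16 (R 4.3.3, limma 3.58.1), with TMM normalisation, filterByExpr, a quasi-likelihood fit over all 12 libraries with 8 residual degrees of freedom, and Benjamini-Hochberg adjustment over 16197 genes. Calls required an adjusted p under 0.05. CPM values are TMM-scaled. RPKM and isoform shares use the union of GENCODE 29 exon bases. Alternatives were DESeq2 1.42.0, other scalings and filters, pseudogene counts added, 2 groups only, a replicate block and leaving out each library. The fit was tested on simulated data.

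The genes and lists were chosen with earlier results of these data known. Library values are given for the PFK and PFKFB genes and for genes called with an absolute log2 fold change of at least 0.5. Among the other pathway genes, up to 4 called genes per direction and comparison with the largest change and at least 1 CPM in the higher group are named, together with repeats in other comparisons. Counts were called uncertain where at least 20% of exon bases overlap another gene or at least 20% of 31-base stretches occur in another gene's transcripts.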

Additional observations from a re-analysis of the deposited data

How the results depend on the processing

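Over the 14 alternatives per gene, no called gene changed direction. All calls were kept in every alternative for 6 of 12 genes in siSLC25A1, 15 of 20 in siACLY and 11 of 20 in siACO1. Leaving out 1 library at a time gave 12 to 20 called glycolysis genes in siACO1 against 20 with all libraries, and 8 to 14 other pathway genes in siSLC25A1 against 15. Such fits have fewer libraries. They called 13.9% to 16.2% of all genes in siSLC25A1, 30.1% to 30.9% in siACLY and 30.7% to 37.3% in siACO1. Leave-one-out counts were 8 to 10 of 12 in siSLC25A1 and 15 to 18 of 20 in siACLY. For single genes, lost calls are named above only for left-out libraries and library totals, not for the other alternatives. The same-numbered replicates did not pair: over 18 such pairs the correlation of deviations was -0.034 to 0.0672 and none was over 0.1, against -0.0719 to 0.0708 over 36 differently numbered pairs. With the replicate number as a block, the called glycolysis genes were again 12, 20 and 20 against siControl, and 18, 19 and 20 between knockdowns, against 18, 18 and 20. The other pathway genes were 16, 13 and 25 against 15, 13 and 25. Isoform shares depend on the length used: HK1 was 52.9% of the hexokinases in siControl by union exon length and 62.8% by longest transcript. With 3 libraries a group, an exact test of a share cannot go below p = 0.1.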
